A study of Mus musculus with 18 samples.

Results

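The 36 genes described here encode proteins that bring glucose into the cell, break it down to pyruvate and lactate, control the entry of pyruvate into the mitochondrion, and divert glucose 6-phosphate into the pentose phosphate pathway. The rule that lists them names pathway genes and uses no measured value, although the list was chosen with earlier results of these data known. All 36 were among the 22852 gene symbols counted in every library. By role, the list holds 3 glucose transporters, 9 genes from the hexokinases to the phosphofructokinases and their regulators, 9 genes from aldolase to pyruvate kinase, 4 lactate genes, 4 pyruvate dehydrogenase genes and 7 pentose phosphate genes.

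RNA-Seq libraries came from 18 samples of bone marrow-derived macrophages (BMDMs), with 3 replicates in each of 6 groups. BMDMs are macrophages grown in culture from marrow cells, here of female C57BL/6 mice, over 7 days in a medium that held sodium pyruvate and medium conditioned by L929 fibroblasts, a source of macrophage growth factor. Unstimulated BMDMs received no LPS, a bacterial cell wall component that activates Toll-like receptor 4. LPS-primed BMDMs received Salmonella LPS at 100 ng/ml for 24 h. LPS-tolerant BMDMs received the same priming dose for 24 h and then fresh medium with LPS at 10 ng/ml for 3 h. LPS-stimulated BMDMs received LPS at 10 ng/ml alone, for 3 h according to the schematic of the study. The remaining groups were LPS-primed and LPS-tolerant BMDMs given 25 µM carboplatin, a platinum drug that forms DNA crosslinks. By the methods of the study the drug was added 1 h before the priming LPS, although the sample labels name it after the LPS. The study describes the drug as present during priming, and the medium was removed after the 24 h. LPS-primed and LPS-stimulated BMDMs differed in both dose and time, so the effects of these cannot be told apart. LPS-tolerant and LPS-primed BMDMs differed in re-exposure, fresh medium and the further 3 h, which cannot be told apart either. The replicates were called biological, but whether each came from a different mouse was not given, so the p-values measure the spread between these samples, which may be technical.

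Glycolysis splits glucose into pyruvate and yields ATP without oxygen, while the pentose phosphate pathway branches off after the hexokinase step and yields NADPH and ribose phosphate. Macrophages activated by LPS are known for a shift towards glycolysis and lactate release, in which the transcription factor HIF-1 drives many glycolytic genes. NADPH from the pentose phosphate pathway feeds both the oxidative burst and the regeneration of glutathione.

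Between 6869667 and 14708099 read pairs per library were counted on genes, and 11305 genes, all 36 listed genes among them, passed the expression filter. Macrophage markers were abundant in every library, with a summed level of 16089 to 33365 CPM (counts scaled to the size of the library) over 10 genes. Summed B cell markers were 28.7 to 168 CPM over 9 genes in unstimulated BMDMs, 7.69 to 29.1 CPM in LPS-stimulated BMDMs and at most 1.36 CPM in the groups primed for 24 h, and the B cell genes Igkc, Pax5 and Blk were at 0 in every library. Summed neutrophil markers were 4.83 to 8.28 CPM over 10 genes in unstimulated BMDMs, 10.7 to 18.1 CPM in LPS-stimulated BMDMs and 28.8 to 336 CPM in the groups primed for 24 h, while Ly6g, Mpo and Retnlg were at 0 throughout. Sums of T cell, dendritic cell, stromal and erythroid markers stayed at or below 9.51 CPM. B cell and neutrophil markers thus moved with LPS, and their part in the results was not tested.

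LPS priming for 24 h raised most of the glycolytic and lactate genes together, and a single 10 ng/ml dose raised fewer of them and lowered Slc2a3, Pfkm, Pfkfb4, Aldoc, G6pdx and Pgd. By the quasi-likelihood test of edgeR, with p-values adjusted by Benjamini-Hochberg over 11305 genes, 22 of the 36 genes rose and 1 fell in LPS-primed against unstimulated BMDMs at an adjusted p under 0.05 (63.9% called), where 25.2% of all tested genes were called, 12.1% as higher and 13.1% as lower. The median log2 fold change (log2FC) of the 36 genes was 1.07, against -0.02 over all tested genes. In LPS-stimulated BMDMs, 15 of the 36 rose and 6 fell (58.3% called), close to the 51.2% of all tested genes that were called, so this total does not set the genes apart. Of all tested genes 24.3% rose and 26.9% fell. The median log2FC was 0.20 there, against -0.09 over all tested genes. With library size alone in place of TMM normalization, the median of all genes moved from -0.09 to -0.43, and the calls became 13 higher and 13 lower. Both comparisons share the unstimulated samples. In these bulk samples, fewer cells of a type and less RNA per cell cannot be told apart.

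Most of these genes had higher levels in LPS-tolerant BMDMs than after the single dose, and few differed between LPS-tolerant and LPS-primed BMDMs. Of the 36 genes, 20 were higher and 4 were lower in LPS-tolerant BMDMs (66.7% called), where 34.5% of all tested genes were called, 16.2% as higher and 18.3% as lower. LPS-tolerant and LPS-primed BMDMs differed in 2 of the 36 genes (5.56%), both lower after re-exposure, near the 6.31% of all tested genes, of which 2.71% were lower. With the added limit of the study, a log2FC beyond 2, the calls were 11 of the 36 genes after priming, 5 after the single dose, 3 between LPS-tolerant and LPS-stimulated and 0 between LPS-tolerant and LPS-primed BMDMs, against 7.47%, 12.0%, 8.04% and 0.681% of all tested genes. The 36 genes took 0.962% ± 0.221 (SD, n = 3) of the counted read pairs in unstimulated and 1.02% ± 0.162 in LPS-stimulated BMDMs. Their share was 2.43% ± 0.241 in LPS-primed BMDMs, 2.44% ± 0.259 with carboplatin, 2.42% ± 0.186 in LPS-tolerant BMDMs and 2.37% ± 0.194 with carboplatin. The ranges of the 24 h groups did not overlap those of the other 2 groups.

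**Figure D1:**
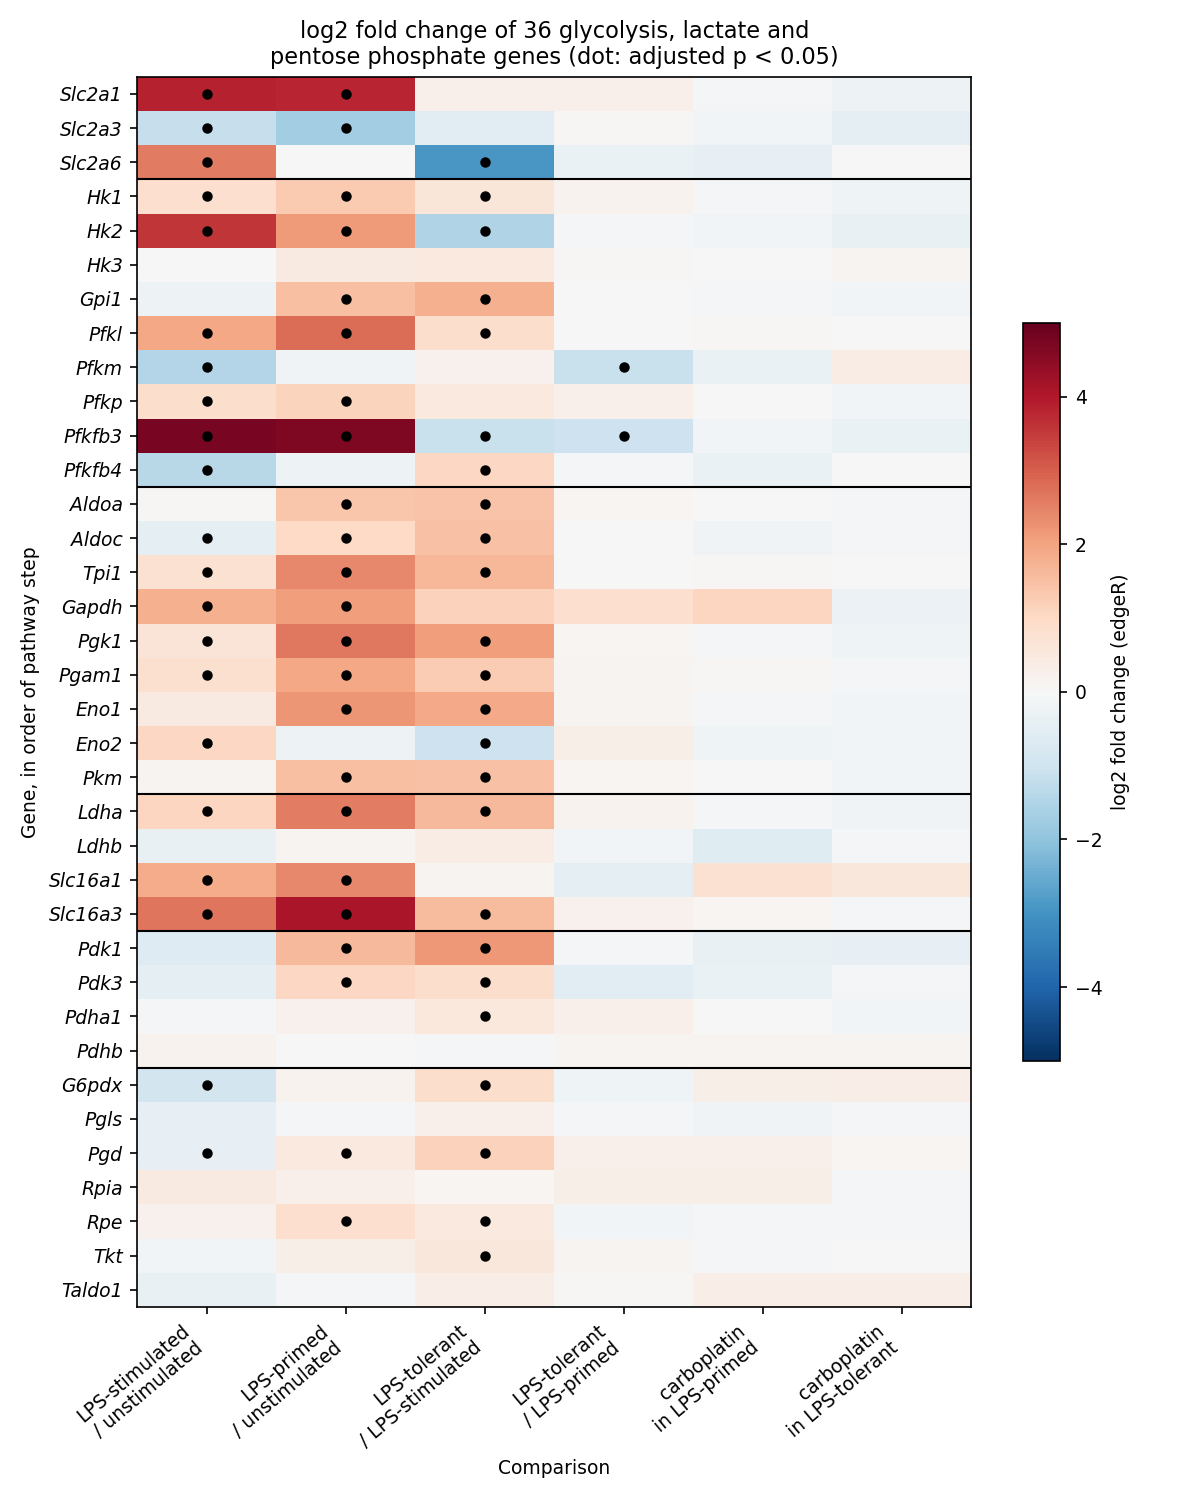
Heat map of the log2FC of the 36 genes (rows, in order of pathway step, with lines between the roles) in 6 comparisons (columns), where a dot marks an adjusted p under 0.05 and red is higher in the group named first. Dots fill most of the columns for LPS priming (23 genes) and for LPS-tolerant against LPS-stimulated BMDMs (24 genes), and the columns for carboplatin hold none.

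The level per kilobase of transcript placed the same few enzymes at the top in every group. In unstimulated BMDMs, the highest were the aldolase Aldoa at 7618 ± 2143 normalized counts per kilobase and the pyruvate kinase Pkm at 7153 ± 2572, which did not differ beyond their spread, followed by the transaldolase Taldo1 at 3977 ± 585. In LPS-primed BMDMs, Pkm reached 20123 ± 2409, Aldoa 19836 ± 3010 and the lactate dehydrogenase Ldha 17929 ± 2182, and these 3 overlapped. Aldoa, Pkm and Ldha also held the top 3 places in LPS-tolerant and LPS-stimulated BMDMs.

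Counts of some of these genes are uncertain because near-identical copies exist elsewhere in the genome. Gapdh, the glyceraldehyde 3-phosphate dehydrogenase, matched 117 further places of GRCm39 over at least 50% of its transcript at 90% identity or more, 35 of them at 97% or more. Its counts were low for a glycolytic enzyme and scattered within groups, so its values are given as uncertain. Eno1, Ldha, Pgam1, Pkm, Aldoa, Tpi1, Pgk1, Ldhb, Pdhb and Taldo1 had 1 to 6 such copies, and the other 25 genes had none. The annotated spans of Hk1, Hk3, Pfkl, Pfkm, Pfkp, Aldoa, Tpi1, Gapdh, Slc16a3, Pdk3, Pdha1, Pdhb, G6pdx, Pgls and Rpe overlap those of other counted genes, on the opposite strand except for Pgls. The strand setting of the counting was not given, so the values of these genes carry that uncertainty.

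Promoter sequences are shown for 5 genes whose patterns across the groups differ, chosen after their values were seen: Slc2a1, Hk2, Pgk1 and Tpi1, which passed the test as higher after priming and after the single dose, and Slc2a6, which passed it after the single dose and not after priming. The sequences are from the RefSeq promoter table (GRCm38.p6), were placed by exact match on GRCm39, and are the longest stretch without an annotated exon within 250 bases before the transcript start. Capitals mark the hypoxia response core, searched as ACGTG and GCGTG on both strands, so that CACGT and CACGC are matches on the other strand and a CACGTG E-box would also be counted. The Slc2a1 stretch lies at chr4:118965692-118965907 (+), Slc2a6 at chr2:26918093-26918260 (-), Hk2 at chr6:82751470-82751685 (-), Pgk1 at chrX:105230456-105230705 (+) and Tpi1 at chr6:124791274-124791371 (-).
Slc2a1: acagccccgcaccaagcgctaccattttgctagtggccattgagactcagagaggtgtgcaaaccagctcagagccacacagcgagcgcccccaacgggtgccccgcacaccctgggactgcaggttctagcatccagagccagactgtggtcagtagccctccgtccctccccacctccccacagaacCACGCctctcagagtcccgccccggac
Slc2a6: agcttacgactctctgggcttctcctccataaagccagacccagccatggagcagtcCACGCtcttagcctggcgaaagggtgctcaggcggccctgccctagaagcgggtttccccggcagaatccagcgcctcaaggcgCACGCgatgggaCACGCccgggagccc
Hk2: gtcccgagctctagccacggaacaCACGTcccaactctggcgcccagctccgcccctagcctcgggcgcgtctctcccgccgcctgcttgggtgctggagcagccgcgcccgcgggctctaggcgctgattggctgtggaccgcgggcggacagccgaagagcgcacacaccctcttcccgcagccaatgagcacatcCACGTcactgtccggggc
Pgk1: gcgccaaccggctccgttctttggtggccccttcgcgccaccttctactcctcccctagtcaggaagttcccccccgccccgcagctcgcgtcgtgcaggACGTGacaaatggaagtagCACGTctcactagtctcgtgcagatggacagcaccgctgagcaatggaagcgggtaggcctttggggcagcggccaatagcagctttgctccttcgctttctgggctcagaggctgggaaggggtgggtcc
Tpi1: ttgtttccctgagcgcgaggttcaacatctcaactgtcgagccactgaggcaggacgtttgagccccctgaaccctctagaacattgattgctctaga
Pgk1 held matches 150 and 131 bases before its start and Hk2 held them 226 and 52 bases before, while the Slc2a1 stretch held 1, 61 bases before, and the Slc2a6 stretch held 3. The full windows of Slc2a1 and Slc2a6 held 2 and 4, since the match nearest the start reached beyond the stretch shown. The Tpi1 window held none, which says only that these letters are not in it. Of the 49 promoters listed for 35 of the 36 genes, 39 (79.6%) held a match, against 55.9% of the 11642 promoters of tested genes. Some windows of the same gene overlap and share matches, as in Eno1, Aldoa and Pfkm, so the promoters are not independent units. A match is a description of the sequence and not a binding site.

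Glucose uptake genes differed in their pattern across the groups. Slc2a1 encodes GLUT1, the main glucose transporter of activated macrophages, and had 226, 170 and 166 normalized counts in the unstimulated, 3030, 2283 and 2538 in the LPS-primed, and 2061, 2056 and 3915 in the LPS-stimulated samples. Every LPS sample lay above every unstimulated one, with log2FC 3.81 ± 0.30 (SE, adjusted p = 6.55e-08) after priming and 3.84 ± 0.30 (adjusted p = 2.18e-08) after the single dose. Slc2a6 encodes GLUT6, a transporter of intracellular membranes, and had 952, 474 and 641 counts in the unstimulated, 584, 792 and 740 in the LPS-primed, 550, 474 and 653 in the LPS-tolerant, and 5609, 2972 and 3993 in the LPS-stimulated samples. Its LPS-stimulated samples stood above all others (log2FC 2.61 ± 0.26, adjusted p = 4.13e-07), and LPS-primed and unstimulated samples overlapped (log2FC 0.03, adjusted p = 0.941). Slc2a6 in LPS-tolerant BMDMs was at 0.133 times its level in LPS-stimulated BMDMs (log2FC -2.91 ± 0.26, adjusted p = 3.42e-07). Slc2a3, which encodes the high-affinity transporter GLUT3, fell from 93.5 ± 21.0 counts to 28.3 ± 13.7 after priming (log2FC -1.72, adjusted p = 0.00626) and to 42.5 ± 9.13 after the single dose (log2FC -1.14, adjusted p = 0.0291). The latter call was lost without unstimulated replicate 2 or 3 or LPS-stimulated replicate 2 or 3 (adjusted p up to 0.103).

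Among the genes of the upper pathway, Pfkfb3 had the largest rise after priming and after the single dose, followed by Pfkl after priming and by Hk2 after the single dose. Pfkfb3 makes fructose 2,6-bisphosphate, the allosteric activator of phosphofructokinase, and had 84.1, 166 and 101 counts in the unstimulated, 2757, 3143 and 3131 in the LPS-primed, 1620, 3568 and 4368 in the LPS-stimulated, and 1600, 1301 and 1469 in the LPS-tolerant samples. The groups did not overlap with the unstimulated samples, and LPS-tolerant samples were below all other LPS samples without carboplatin. The gene was 25.7-fold higher after priming (log2FC 4.68 ± 0.32, adjusted p = 1.34e-08) and 27.2-fold higher after the single dose (log2FC 4.76 ± 0.32, adjusted p = 4.51e-09). Hk2, an inducible hexokinase that binds mitochondria, had 163, 207 and 241 counts in the unstimulated, 798, 866 and 1015 in the LPS-primed, 572, 783 and 1174 in the LPS-tolerant, and 1559, 2593 and 3054 in the LPS-stimulated samples. Its order was unstimulated, then the overlapping LPS-primed and LPS-tolerant groups, then LPS-stimulated. Hk2 was 4.38-fold higher after priming (adjusted p = 7.8e-05), 11.8-fold higher after the single dose (adjusted p = 1.97e-07), and at 0.351 times the LPS-stimulated level in LPS-tolerant BMDMs (adjusted p = 0.000975).

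Hk1, the constitutive hexokinase, rose 2.44-fold after priming (adjusted p = 1.31e-05) and 1.80-fold after the single dose (adjusted p = 0.000297). Hk3, the hexokinase of myeloid cells, did not pass the test in either comparison, with log2FC 0.44 (adjusted p = 0.376) and 0.01. With the replicate number as a block, Hk3 was called after priming (log2FC 0.48, adjusted p = 0.00504) and in LPS-tolerant against LPS-stimulated BMDMs (log2FC 0.50, adjusted p = 0.00277). Pfkl, the liver-type phosphofructokinase, had 621, 471 and 391 counts in the unstimulated, 3780, 3279 and 3280 in the LPS-primed, and 1508, 1412 and 2806 in the LPS-stimulated samples. These 3 groups did not overlap, with a 6.97-fold rise after priming (adjusted p = 2.17e-07) and a 3.86-fold rise after the single dose (adjusted p = 3.47e-06). The platelet type Pfkp rose 2.17-fold (adjusted p = 0.000438) and 1.84-fold (adjusted p = 0.00136), while the muscle type Pfkm fell to 0.357 times its unstimulated level after the single dose (log2FC -1.48 ± 0.30, adjusted p = 0.000543), with log2FC -0.16 after priming. In LPS-tolerant against LPS-stimulated BMDMs, Pfkp had log2FC 0.50 (adjusted p = 0.0586), which passed with the replicate block (log2FC 0.51, adjusted p = 0.0042). Pfkfb4, a paralog of Pfkfb3, also fell after the single dose, from 218, 231 and 254 to 90.7, 87.9 and 93.7 counts, without overlap (log2FC -1.37 ± 0.19, adjusted p = 2.04e-05). Gpi1, the glucose 6-phosphate isomerase, had 5691, 4761 and 3758 counts in the unstimulated, 15220, 13059 and 12315 in the LPS-primed, 15189, 11751 and 14390 in the LPS-tolerant, and 4523, 3189 and 4259 in the LPS-stimulated samples. It separated the groups primed for 24 h from the other 2, with log2FC 1.51 ± 0.18 after priming (adjusted p = 8.25e-06) and 1.79 ± 0.18 between LPS-tolerant and LPS-stimulated BMDMs (adjusted p = 1.24e-06).

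**Figure D2:**
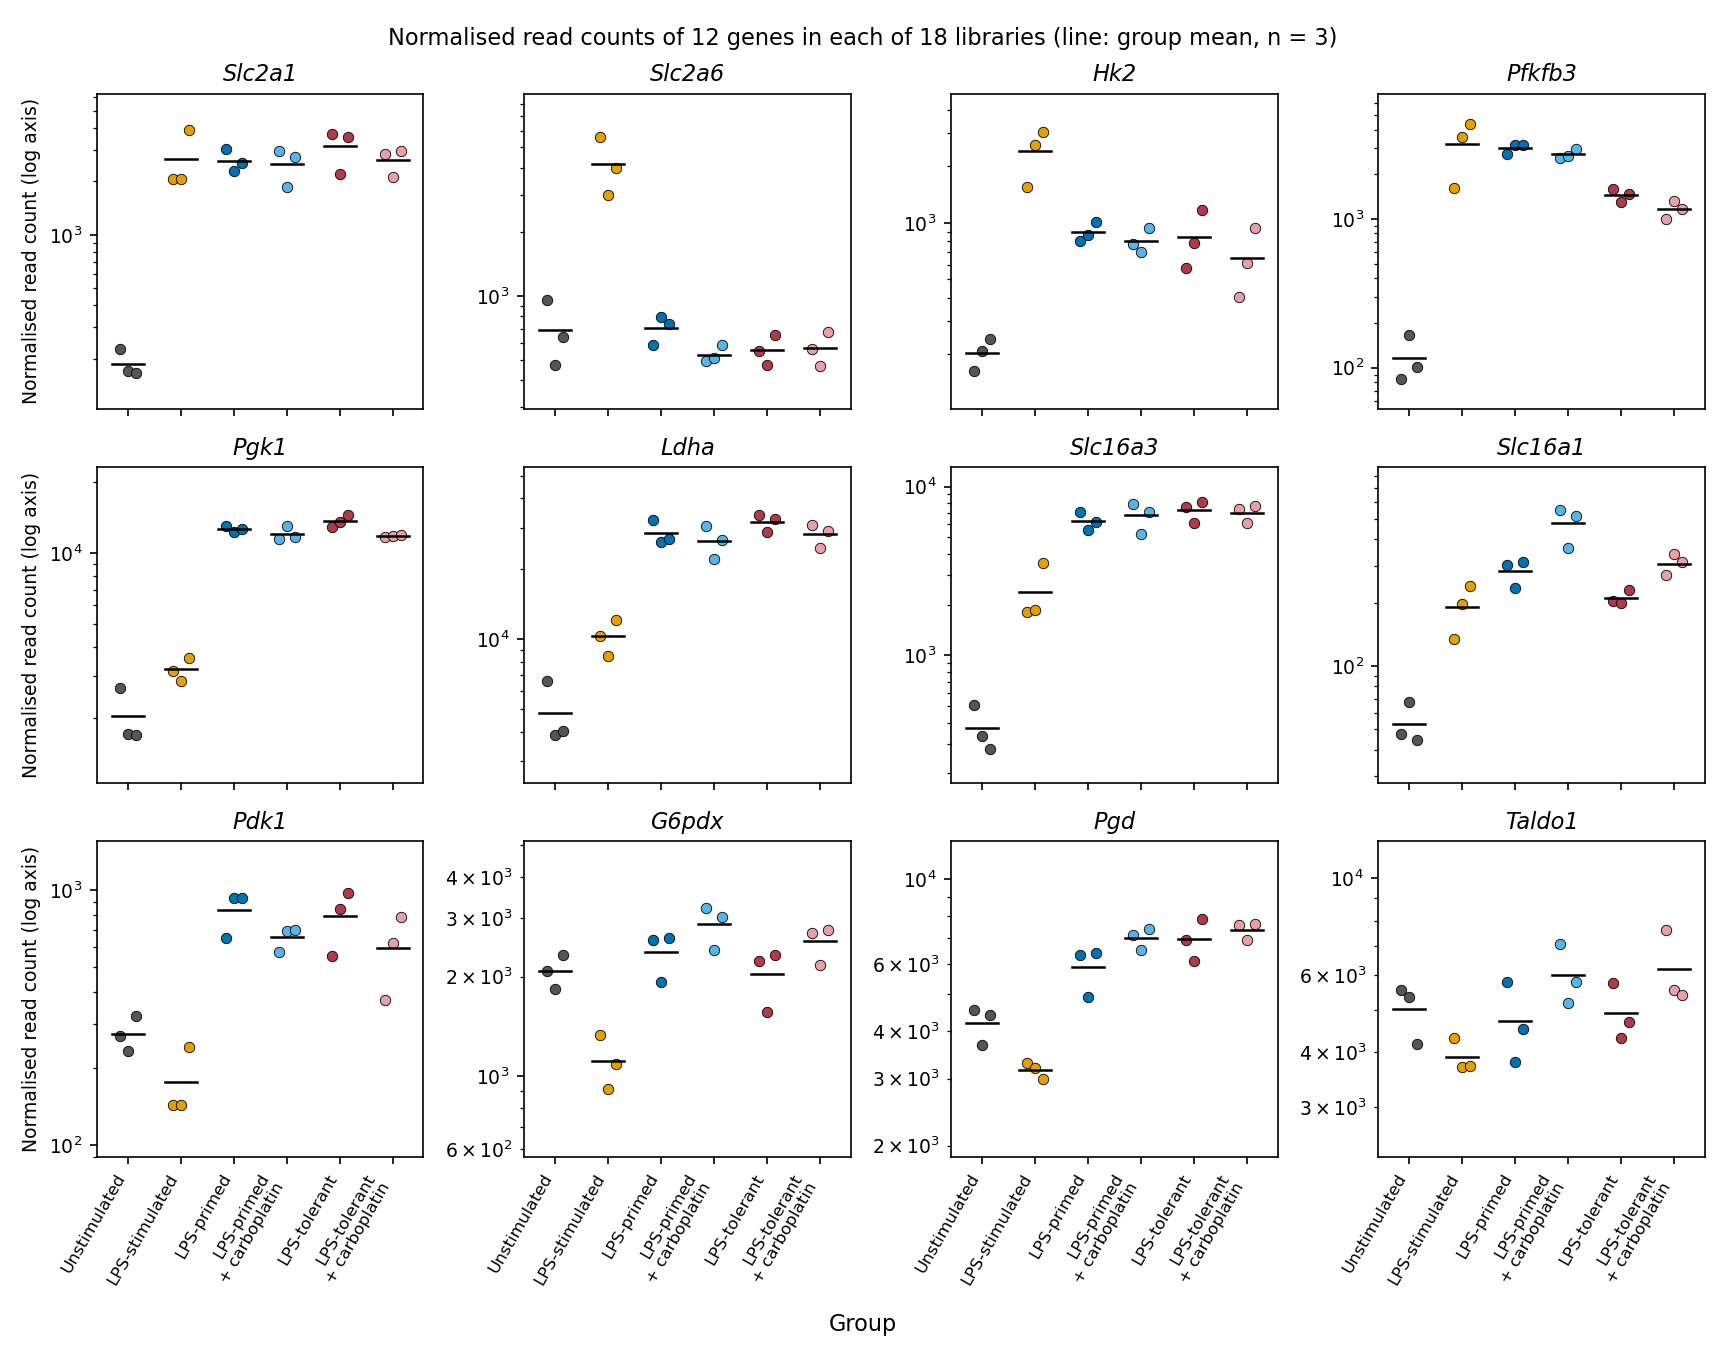
Normalized read counts (log axis) of 12 genes in each of the 18 libraries, with points for the replicates, a line for each group mean (n = 3) and the 6 groups along the horizontal axis. Slc2a6 and Hk2 stood highest in LPS-stimulated BMDMs, Pgk1, Ldha, Slc16a3 and Pdk1 stood highest in the groups primed for 24 h, and G6pdx and Pgd stood lowest in LPS-stimulated BMDMs.

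From aldolase to pyruvate kinase, 8 of 9 genes rose after priming, with a median log2FC of 1.94, where 12.1% of all tested genes rose and their median was -0.02. Pgk1, the phosphoglycerate kinase that makes the first ATP of the pathway, had 2682, 1714 and 1699 counts in the unstimulated, 13039, 12215 and 12635 in the LPS-primed, 12900, 13518 and 14415 in the LPS-tolerant, and 3167, 2875 and 3604 in the LPS-stimulated samples. No LPS-stimulated sample came near the primed ones, although all 3 were above the unstimulated samples. Its log2FC was 2.64 ± 0.16 after priming (adjusted p = 4.24e-09), 0.66 after the single dose (adjusted p = 0.00197) and 2.08 ± 0.16 between LPS-tolerant and LPS-stimulated BMDMs (adjusted p = 5.09e-08). The call after the single dose was lost with library size alone in place of TMM, as was that of Tpi1. Tpi1, the triose phosphate isomerase, had 3607, 2463 and 2053 counts in the unstimulated, 15843, 13453 and 13805 in the LPS-primed, 14337, 13840 and 15376 in the LPS-tolerant, and 4381, 3513 and 5965 in the LPS-stimulated samples. LPS-stimulated and unstimulated samples overlapped in this gene, the only overlap among the called genes of these comparisons with unstimulated cells (log2FC 0.77, adjusted p = 0.00344).

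Eno1, the main enolase, had 7330, 4644 and 4179 counts in the unstimulated, 29044, 22778 and 21633 in the LPS-primed, 29766, 23957 and 27694 in the LPS-tolerant, and 7710, 5550 and 8563 in the LPS-stimulated samples. Primed and tolerant samples were above all others, with a 4.55-fold rise after priming (adjusted p = 9.54e-07), while the log2FC of 0.43 after the single dose missed the threshold (adjusted p = 0.0899) and passed with the replicate block (log2FC 0.45, adjusted p = 0.00831). Aldoa and Pkm, the most abundant of these genes per kilobase, followed the same division. Aldoa rose 2.60-fold (adjusted p = 0.000186) and Pkm 2.81-fold (adjusted p = 4.45e-05) after priming, with log2FC 0.04 and 0.14 after the single dose (adjusted p = 0.903 and 0.606). Pgam1, a phosphoglycerate mutase, rose in both comparisons, 3.83-fold (adjusted p = 3.03e-07) and 1.75-fold (adjusted p = 0.00076). Gapdh was 4.29-fold higher after priming (adjusted p = 0.00665) and 3.45-fold higher after the single dose (adjusted p = 0.00891), values that are uncertain for the reason given above. Aldoc, the brain-type aldolase, rose 2.01-fold after priming (adjusted p = 0.00068) and was at 0.719 times the unstimulated level after the single dose (adjusted p = 0.0444). That lower level of Aldoc lost its call without any unstimulated replicate, or without LPS-stimulated replicate 2 or 3 (adjusted p up to 0.198). Eno2, the neuronal enolase, had the reverse pattern, with 299, 222 and 169 counts in the unstimulated and 599, 512 and 317 in the LPS-stimulated samples, without overlap. It rose 2.07-fold after the single dose (adjusted p = 0.00431), with log2FC -0.27 after priming (adjusted p = 0.541).

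The lactate genes were among those with the largest changes. Ldha, the subunit that favors the conversion of pyruvate to lactate, had 6604, 3867 and 4045 counts in the unstimulated, 32444, 26079 and 26891 in the LPS-primed, 33971, 28638 and 32573 in the LPS-tolerant, and 10273, 8434 and 12090 in the LPS-stimulated samples. The LPS-stimulated samples lay between the other groups without overlap, 2.12-fold above unstimulated cells (adjusted p = 0.000268), where LPS-primed samples were 5.88-fold above (adjusted p = 1.26e-07). Slc16a3 encodes MCT4, the transporter that exports lactate, and had 508, 334 and 281 counts in the unstimulated, 7104, 5551 and 6179 in the LPS-primed, 7571, 6063 and 8135 in the LPS-tolerant, and 1797, 1862 and 3516 in the LPS-stimulated samples. It kept the same order as Ldha without overlap, with a 16.8-fold rise after priming (adjusted p = 1.95e-08) and a 6.39-fold rise after the single dose (adjusted p = 4.96e-07). Slc16a1 encodes MCT1, which carries lactate and pyruvate in either direction, and had 47.8, 67.2 and 44.5 counts in the unstimulated, 302, 235 and 312 in the LPS-primed, and 135, 197 and 241 in the LPS-stimulated samples. Its LPS samples were all above the unstimulated ones, 5.30-fold after priming (adjusted p = 9.85e-07) and 3.58-fold after the single dose (adjusted p = 6.6e-06). Ldhb, the subunit that favors the reverse reaction, did not pass the test, with log2FC 0.13 and -0.37.

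Of the pyruvate dehydrogenase genes, the kinases changed after priming and the enzyme subunits did not pass the test. Pdk1, a kinase that inhibits pyruvate dehydrogenase, had 268, 234 and 320 counts in the unstimulated, 648, 932 and 937 in the LPS-primed, 552, 845 and 976 in the LPS-tolerant, and 144, 144 and 243 in the LPS-stimulated samples. LPS-primed and LPS-tolerant samples were above all unstimulated ones, and 2 of 3 LPS-stimulated samples were below them. Pdk1 rose 3.06-fold after priming (adjusted p = 0.000336) and was 4.47-fold higher in LPS-tolerant BMDMs than after the single dose (adjusted p = 1.95e-05), the largest rise of the 36 genes in that comparison. Its log2FC of -0.63 after the single dose missed the threshold (adjusted p = 0.0696) and passed with the replicate block (log2FC -0.67, adjusted p = 0.00326). Pdk3, a further kinase, rose 2.03-fold after priming (adjusted p = 0.00414) and had log2FC -0.43 after the single dose (adjusted p = 0.154). Pdha1 and Pdhb encode the catalytic subunits, and their log2FC after priming were 0.20 (adjusted p = 0.353) and -0.02. Pdha1 was 1.43-fold higher in LPS-tolerant BMDMs than after the single dose (adjusted p = 0.011), a call that was lost without LPS-tolerant replicate 2 (adjusted p = 0.0506).

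In each comparison against unstimulated cells, 2 of the 7 pentose phosphate genes were called, and totals over so few genes do not set them apart. After priming 2 of 7 rose (28.6%), where 12.1% of all tested genes rose and 25.2% were called in either direction. After the single dose 2 of 7 fell (28.6%), where 26.9% of all tested genes fell and 51.2% were called. In LPS-tolerant BMDMs 4 of 7 were higher than after that dose (57.1%). Of all tested genes 16.2% were higher there and 34.5% were called. G6pdx encodes glucose 6-phosphate dehydrogenase, which commits glucose to the pathway, and had 2075, 1836 and 2318 counts in the unstimulated, 2577, 1920 and 2623 in the LPS-primed, 2225, 1565 and 2317 in the LPS-tolerant, and 1329, 909 and 1084 in the LPS-stimulated samples. The LPS-stimulated samples were below all others, at 0.533 times the unstimulated level (log2FC -0.91 ± 0.19, adjusted p = 0.000784), and the other groups overlapped (log2FC 0.19 after priming, adjusted p = 0.513). Pgd, the second NADPH-yielding dehydrogenase of the pathway, had 4532, 3685 and 4397 counts in the unstimulated, 6330, 4923 and 6405 in the LPS-primed, 6946, 6091 and 7879 in the LPS-tolerant, and 3294, 3194 and 2992 in the LPS-stimulated samples. It rose 1.40-fold after priming (adjusted p = 0.0137) and fell to 0.752 times after the single dose (adjusted p = 0.0181), without overlap in either comparison. The rise was lost without unstimulated replicate 2 or LPS-primed replicate 1 or 3 (adjusted p up to 0.0642), and the fall without unstimulated replicate 1 or 3 or LPS-stimulated replicate 3 (adjusted p up to 0.0795). Pgd was 2.21-fold higher in LPS-tolerant BMDMs than after the single dose (adjusted p = 7.48e-06), and G6pdx was 1.84-fold higher (adjusted p = 0.00166).

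In the non-oxidative branch, which interconverts sugar phosphates, Rpe rose 1.78-fold after priming (adjusted p = 0.00188). Tkt, the transketolase, had 4390, 3348 and 2908 counts in the unstimulated, 4794, 4201 and 4077 in the LPS-primed, 5205, 4228 and 4916 in the LPS-tolerant, and 3711, 2628 and 3258 in the LPS-stimulated samples. Its LPS-primed samples overlapped the unstimulated ones (log2FC 0.30, adjusted p = 0.209), a difference that passed with the replicate block (log2FC 0.31, adjusted p = 0.0354), and its LPS-tolerant samples were above the LPS-stimulated ones (log2FC 0.58, adjusted p = 0.0104). That call was lost without LPS-stimulated replicate 2 (adjusted p = 0.0584), and the corresponding call of Rpe (log2FC 0.48, adjusted p = 0.04) was lost without any LPS-tolerant replicate or without LPS-stimulated replicate 2 or 3 (adjusted p up to 0.133). Taldo1, the transaldolase, had log2FC -0.10 after priming and -0.36 after the single dose (adjusted p = 0.112), and the latter passed with the replicate block (log2FC -0.37, adjusted p = 0.00789). The block also called Taldo1 in LPS-tolerant against LPS-stimulated BMDMs (log2FC 0.33, adjusted p = 0.021, against 0.182 without the block). Pgls, the lactonase between both dehydrogenases, had log2FC -0.41 after the single dose (adjusted p = 0.204), which also passed with the block (log2FC -0.42, adjusted p = 0.0477). Rpia, the ribose phosphate isomerase, did not pass in any comparison.

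**Figure D3:**
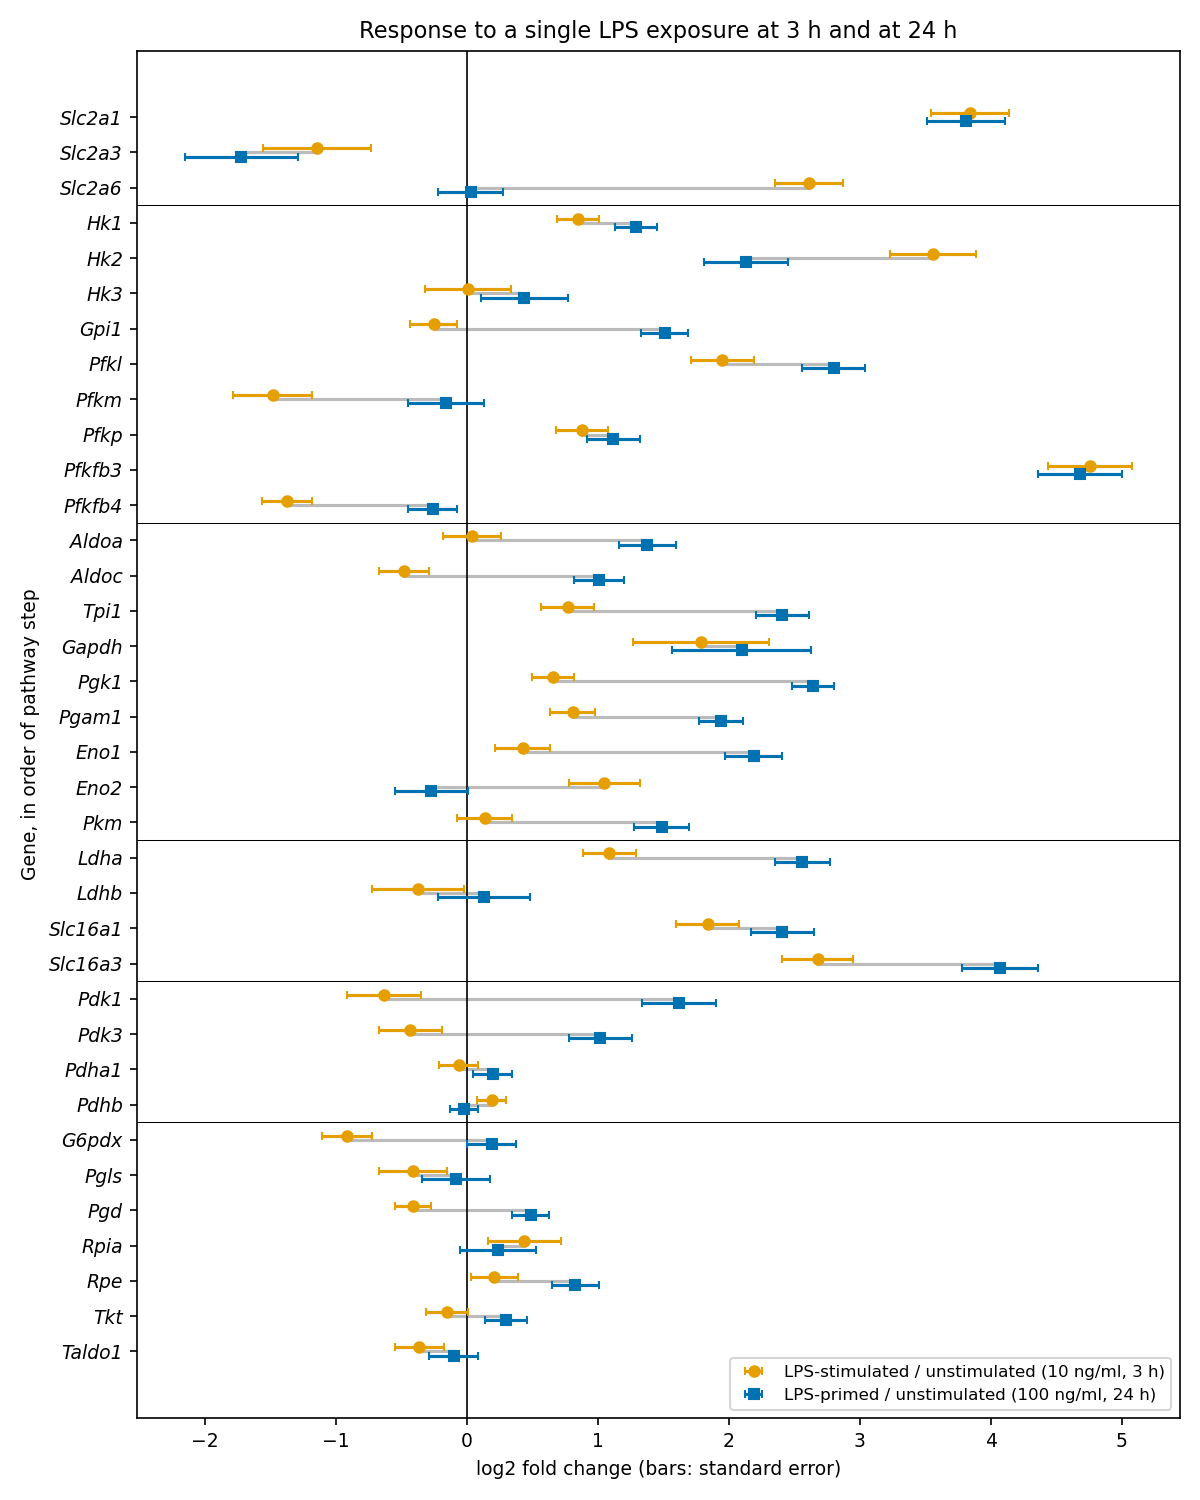
Log2FC of the 36 genes against unstimulated BMDMs (horizontal axis, bars for the standard error) in LPS-stimulated (10 ng/ml, 3 h, circles) and LPS-primed (100 ng/ml, 24 h, squares) BMDMs, with genes in order of pathway step. Slc2a1 and Pfkfb3 lay at nearly the same place in both, Slc2a6 and Hk2 lay further right after the single dose, and Pgk1, Eno1, Ldha, Slc16a3 and Pdk1 lay further right after priming.

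The makeup of several steps differed between groups. Shares are of the summed level per kilobase of canonical transcript within a step, are descriptions without a test, and depend on the transcript length used. Among the listed glucose transporters, Slc2a1 made up 11.2% ± 1.97 (SD, n = 3) in unstimulated, 23.9% ± 8.53 in LPS-stimulated, 63.4% ± 7.0 in LPS-primed and 72.1% ± 3.89 in LPS-tolerant BMDMs. Slc2a6 made up most of the rest, with 82.2% ± 4.27 in unstimulated and 35.8% ± 6.6 in LPS-primed BMDMs. Hk2 was 2.18% ± 1.01 of the hexokinase sum in unstimulated, 17.3% ± 8.1 in LPS-stimulated and 5.23% ± 1.42 in LPS-primed BMDMs, and Hk3 was the largest in each of these groups (70.2% ± 7.64, 49.1% ± 9.22 and 56.3% ± 6.76). Pfkl took the place of Pfkp as the leading phosphofructokinase, from 29.2% ± 2.13 in unstimulated to 60.4% ± 3.52 in LPS-primed BMDMs. Pfkfb3 went from 23.2% ± 6.46 of the Pfkfb3 and Pfkfb4 sum to 94.8% ± 2.73 in LPS-stimulated, 90.5% ± 1.12 in LPS-primed and 83.0% ± 1.79 in LPS-tolerant BMDMs. Ldha made up at least 98.1% of the lactate dehydrogenase sum in every group.

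**Figure D4:**
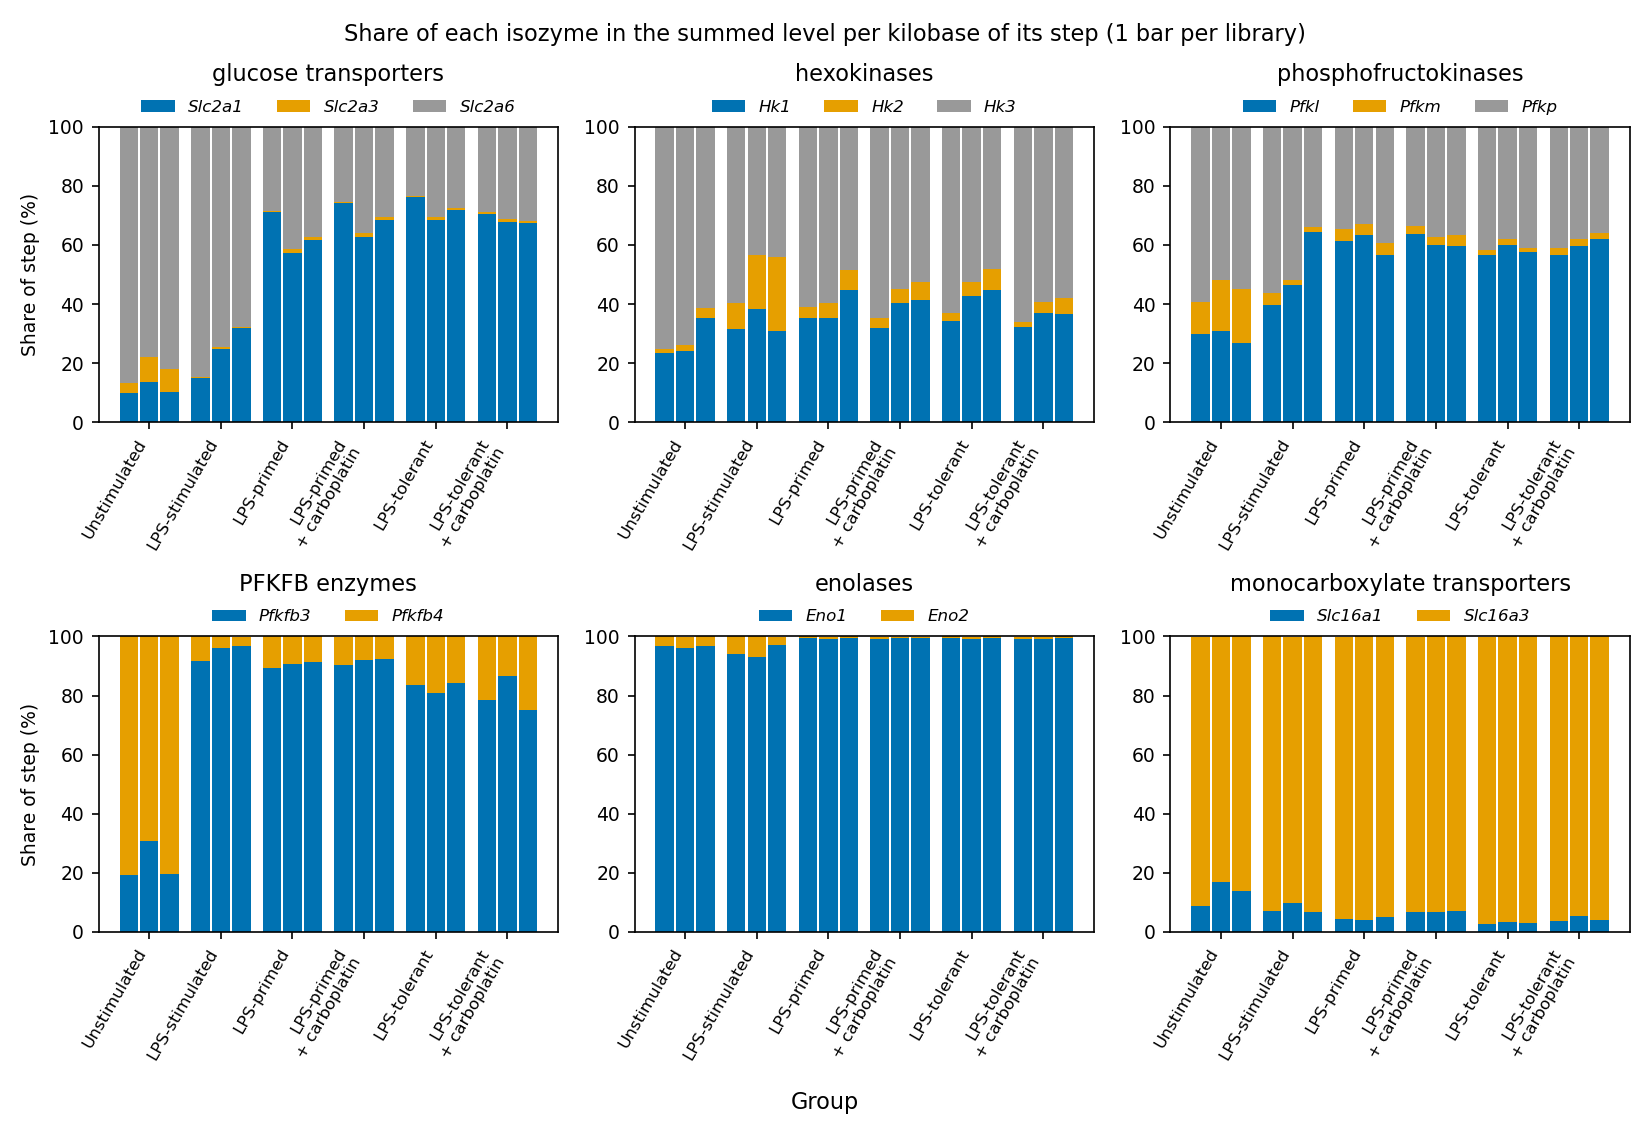
Share (%) of each gene in the summed level per kilobase of its step, with 1 stacked bar per library and 3 libraries per group along the horizontal axis, for 6 steps. Slc2a1, Pfkl and Pfkfb3 filled larger shares in the groups primed for 24 h than in unstimulated BMDMs, and the Hk2 share was largest in LPS-stimulated BMDMs.

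LPS at 10 ng/ml raised 15 of the 36 genes as the first exposure, and 0 of the 36 were called as higher on re-exposure. Of all tested genes, 24.3% were called as higher after the first exposure. On re-exposure 6.31% of all tested genes were called in either direction, 2.71% as lower. The 0 on re-exposure is near this background and does not set the 36 genes apart. The response to re-exposure (LPS-tolerant against LPS-primed) differed from the response to the first (LPS-stimulated against unstimulated) in 12 of the 36 genes (33.3%), where 23.8% of all tested genes were called. The response to re-exposure was lower in 10 and higher in 2 of them, against 13.3% lower and 10.5% higher of all tested genes. With a difference beyond 2, 6 of the 36 genes and 8.01% of all tested genes were called. With library size alone the split was 7 lower and 3 higher. The largest differences were those of Pfkfb3 (-5.81 ± 0.42, adjusted p = 2.8e-08), Hk2 (-3.64 ± 0.44, adjusted p = 1.15e-05), Slc2a1 (-3.56 ± 0.39, adjusted p = 3.42e-06) and Slc2a6 (-2.94 ± 0.36, adjusted p = 1.16e-05), given as differences of log2FC. The lactate transporters Slc16a3 (-2.47 ± 0.36, adjusted p = 8.49e-05) and Slc16a1 (-2.27 ± 0.32, adjusted p = 5.82e-05) followed. These genes, apart from Slc2a6, started re-exposure from a level already raised by priming. Slc2a6 did not, since its LPS-primed samples (584, 792 and 740 counts) overlapped the unstimulated ones, and its LPS-tolerant samples (550, 474 and 653) overlapped both.

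Smaller differences were those of Pfkl (-1.92 ± 0.32, adjusted p = 0.000301), Ldha (-0.93 ± 0.28, adjusted p = 0.0235), Hk1 (-0.69 ± 0.22, adjusted p = 0.0337) and Pgam1 (-0.67 ± 0.24, adjusted p = 0.0495). Pfkfb4 (1.28 ± 0.27, adjusted p = 0.00222) and Pgd (0.66 ± 0.19, adjusted p = 0.0193) differed the other way, since they fell after the first exposure and had log2FC -0.09 and 0.24 after re-exposure. The call was lost in 10 of 12 fits without 1 library for Pgam1 (adjusted p up to 0.139, kept only without unstimulated replicate 1 or LPS-stimulated replicate 2) and in 8 of 12 for Hk1 (up to 0.0905, kept only without unstimulated replicate 1, LPS-primed replicate 2, LPS-tolerant replicate 1 or LPS-stimulated replicate 3). Ldha lost it without unstimulated replicate 2 or 3, LPS-primed replicate 1, LPS-tolerant replicate 2 or LPS-stimulated replicate 3 (up to 0.0697). Pgd lost it without LPS-primed replicate 2 or LPS-tolerant replicate 3 (up to 0.0609). With the replicate block 6 further genes were called, although 1 of the sample pairs in this contrast did not deviate together. These were G6pdx (0.69, adjusted p = 0.000836), Taldo1 (0.44, adjusted p = 0.0348), Pgk1 (-0.56, adjusted p = 0.0337), Tpi1 (-0.75, adjusted p = 0.0159), Pfkp (-0.63, adjusted p = 0.0136) and Eno2 (-0.74, adjusted p = 0.0304), with adjusted p of 0.0554 to 0.27 without the block.

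The direct comparison of LPS-tolerant with LPS-primed BMDMs called Pfkfb3 and Pfkm. Pfkfb3 was at 0.484 times the LPS-primed level (log2FC -1.05 ± 0.27, adjusted p = 0.0303). Pfkm had 257, 180 and 222 counts in the LPS-primed and 104, 101 and 98.8 in the LPS-tolerant samples, which did not overlap (log2FC -1.12 ± 0.30, adjusted p = 0.0324). Each call was lost in 5 of 6 fits without 1 library, with Pfkfb3 kept only without LPS-primed replicate 1 (adjusted p up to 0.106) and Pfkm only without LPS-primed replicate 2 (up to 0.104). The log2FC of the other 34 genes were between -0.57 (Pdk3, adjusted p = 0.172) and 0.83 (Gapdh, adjusted p = 0.367). The 95% interval was -0.28 to 0.83 for Slc2a1, -0.72 to 0.55 for Hk2 and -0.26 to 0.58 for Ldha, and changes within these bounds remain possible.

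**Figure D5:**
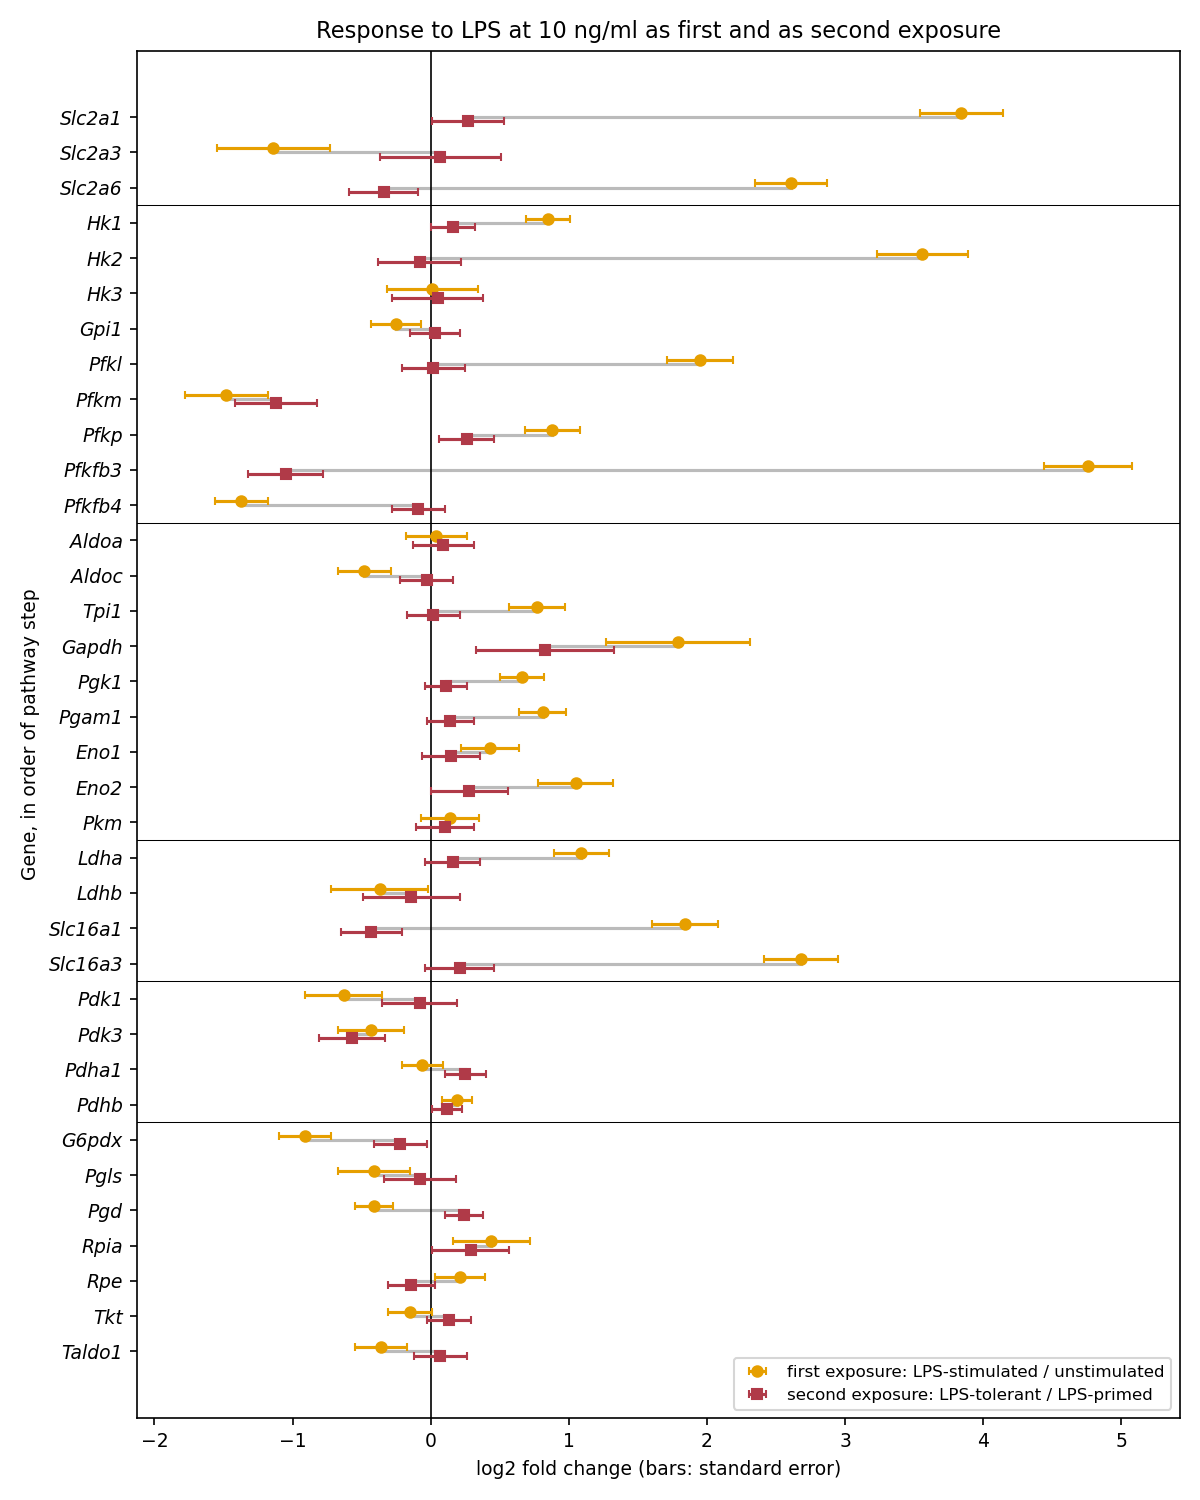
Log2FC of the 36 genes (horizontal axis, bars for the standard error) for LPS at 10 ng/ml as the first exposure (LPS-stimulated against unstimulated, circles) and as re-exposure (LPS-tolerant against LPS-primed, squares), with genes in order of pathway step. The squares lay between -1.12 and 0.83, while the circles of Pfkfb3, Slc2a1, Hk2, Slc16a3 and Slc2a6 lay above 2.

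Carboplatin was compared with vehicle in LPS-primed and in LPS-tolerant BMDMs, and no listed gene passed the test in either. The log2FC was below 0 in 23 of the 36 genes in LPS-primed and in 27 in LPS-tolerant BMDMs. The medians were -0.06 and -0.08, against 0.01 over all tested genes in both states, and this lean was not tested. edgeR called 0 of the 36 genes in LPS-primed BMDMs, where 0.372% of all tested genes were called, and 0 in LPS-tolerant BMDMs, where 0.425% were called. At an unadjusted p under 0.05, 2 genes (Slc16a1 and Gapdh) stood out in LPS-primed and 1 (Slc16a1) in LPS-tolerant BMDMs, against 6.86% and 6.73% of all tested genes, and DESeq2 and limma-voom also called 0. Slc16a1, the lactate and pyruvate transporter, had 302, 235 and 312 counts in the LPS-primed samples and 551, 366 and 516 with carboplatin. It had 203, 199 and 231 counts in the LPS-tolerant samples and 271, 340 and 311 with carboplatin. In both states every carboplatin sample was above every vehicle sample, with log2FC 0.75 (95% interval 0.29 to 1.21, adjusted p = 0.254) and 0.55 (0.08 to 1.01, adjusted p = 0.601).

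Averaged over both states, carboplatin raised Slc16a1 1.57-fold (log2FC 0.65 ± 0.16, adjusted p = 0.0389), the only call among the 36 genes, where 1.99% of all tested genes were called, 0.115% as higher. At the limits of the study for carboplatin, an adjusted p under 0.25 and a log2FC beyond 2, 0 of the 36 genes and 0.557% of all tested genes were called. The call was lost in 10 of 12 fits without 1 library (adjusted p up to 0.12) and was kept only without carboplatin-treated LPS-primed replicate 2 or carboplatin-treated LPS-tolerant replicate 1. With the replicate block, 3 genes were called, with G6pdx (log2FC 0.31, adjusted p = 0.0109) and Taldo1 (log2FC 0.34, adjusted p = 0.0121) as the further ones. Without the block these had log2FC 0.30 (adjusted p = 0.365) and 0.34 (adjusted p = 0.277). G6pdx had 2577, 1920 and 2623 counts in LPS-primed samples and 3220, 2404 and 3031 with carboplatin, and 2225, 1565 and 2317 in LPS-tolerant samples and 2714, 2173 and 2777 with carboplatin. The groups overlapped, and the carboplatin sample was the higher in each same-numbered pair. Taldo1 had 5783, 3811 and 4522 counts in LPS-primed samples and 7073, 5174 and 5795 with carboplatin, and 5773, 4321 and 4689 in LPS-tolerant samples and 7596, 5567 and 5400 with carboplatin. Its groups overlapped as well, with the carboplatin sample again the higher in each same-numbered pair.

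Gapdh had 702, 619 and 337 counts in LPS-primed samples and 1780, 628 and 1133 with carboplatin, and 1818, 574 and 562 in LPS-tolerant samples and 614, 1447 and 377 with carboplatin. These groups overlapped, and the log2FC in LPS-primed BMDMs was 1.09 with a 95% interval of 0.04 to 2.15 (adjusted p = 0.69). For the glycolytic genes the intervals bound how large a change could be. In LPS-primed BMDMs the interval was -0.61 to 0.50 for Slc2a1, -0.79 to 0.48 for Hk2, -0.71 to 0.43 for Pfkfb3 and -0.53 to 0.31 for Ldha. In LPS-tolerant BMDMs it was -0.81 to 0.30 for Slc2a1, -1.01 to 0.27 for Hk2, -0.90 to 0.25 for Pfkfb3 and -0.60 to 0.24 for Ldha. The difference between the carboplatin effects in both states was called for 0 of the 36 genes and for 0.00% of all tested genes, with 0 of the 36 and 1.16% of all genes at an unadjusted p under 0.05. The log2FC differences with the smallest p were -1.37 for Gapdh (95% interval -2.85 to 0.11), 0.70 for Pfkm (-0.18 to 1.58) and 0.44 for Slc2a6 (-0.30 to 1.18).

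Related genes from 5 further lists were read against the same background. Of the 25 tested genes that regulate HIF-1 or are its targets outside glycolysis, 18 rose and 1 fell after priming, 11 rose and 1 fell after the single dose, and LPS-tolerant exceeded LPS-stimulated BMDMs in 12 and fell short of them in 3. These are 76%, 48% and 60% of the list, against 25.2%, 51.2% and 34.5% of all tested genes called. The total after the single dose is near the background, but its directions are not. There 44.0% of the list rose and 4.0% fell, against 24.3% and 26.9% of all tested genes. Adm, Ak4 and Stc2 had at most 1 count in any unstimulated library, so no fold is given for them, and the adenylate kinase Ak4 reached 237 ± 70.1 normalized counts in LPS-primed BMDMs. Egln3, a prolyl hydroxylase that marks HIF-1α for degradation, was higher in LPS-tolerant BMDMs than after the single dose (log2FC 4.80 ± 0.52, adjusted p = 2.46e-06), as was the collagen prolyl hydroxylase P4ha2 (log2FC 3.61 ± 0.45, adjusted p = 1.09e-05). Ddit4, an inhibitor of mTOR complex signaling, rose after the single dose (log2FC 4.90 ± 0.63, adjusted p = 7.3e-06). Hif1a itself, named after its values were seen, rose to a similar level in both comparisons (log2FC 3.60 ± 0.27 and 3.54 ± 0.27, adjusted p = 3.56e-08 and 1.68e-08).

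Of 14 tested glycogen genes, 6 rose and 1 fell after priming, 1 rose and 7 fell after the single dose, and LPS-tolerant exceeded LPS-stimulated BMDMs in 6 and fell short of them in 1. The shares called were 50%, 57.1% and 50%, against the same 25.2%, 51.2% and 34.5%. Gys1, the muscle-type glycogen synthase, had log2FC 3.27 ± 0.27 (adjusted p = 1.39e-07) after priming and Pgm1, the phosphoglucomutase that links glycogen to glycolysis, had 2.72 ± 0.20 (adjusted p = 2.42e-08). The branching enzyme Gbe1 rose with them (log2FC 2.01 ± 0.25, adjusted p = 1.15e-05). Genes of glycogen breakdown were among those that fell after the single dose, such as the phosphorylase kinase subunit Phka2 (log2FC -1.38, adjusted p = 3.62e-06) and the glycogen phosphorylase Pygb (log2FC -1.21, adjusted p = 1.71e-05).

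Of 25 genes of the TCA cycle and itaconate synthesis, 7 rose and 4 fell after priming (44.0%, against 25.2% of all tested genes), and 4 rose and 6 fell after the single dose (40%, against 51.2%). Acod1, which makes itaconate from aconitate, rose most in both (log2FC 6.96 ± 0.43 and 8.13 ± 0.45, adjusted p = 3.85e-09 and 4.65e-10). The malic enzymes Me2 (log2FC 1.26, adjusted p = 7.53e-06) and Me1 (1.21, adjusted p = 0.00027) came next after priming. Of 27 tested genes among 40 other sugar and pyruvate enzymes, 3 rose and 3 fell after priming (22.2%). After the single dose 3 rose and 12 fell (55.6%), and both totals are near the background. By direction, 11.1% rose and 44.4% fell after the single dose, against 24.3% and 26.9% of all tested genes. Pdk2, a further pyruvate dehydrogenase kinase (log2FC -3.27, adjusted p = 9.62e-06), the mitochondrial phosphoenolpyruvate carboxykinase Pck2 (-2.72, adjusted p = 0.000142) and the bisphosphoglycerate mutase Bpgm (-2.63, adjusted p = 2.13e-06) fell most after the single dose. Bsg, the chaperone that brings MCT1 and MCT4 to the cell surface, rose after priming (log2FC 1.41 ± 0.15, adjusted p = 1.79e-06).

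Among 14 tested regulators of sugar metabolism, 5 rose and 3 fell after priming (57.1%, against 25.2% of all tested genes), and 3 rose and 2 fell after the single dose (35.7%, against 51.2%). The transcription factor Myc rose after the single dose (log2FC 4.84 ± 0.40, adjusted p = 5.03e-08) and again on re-exposure (LPS-tolerant against LPS-primed, log2FC 3.74 ± 0.40, adjusted p = 4.53e-05). Tfeb, a regulator of lysosomal genes, fell after the single dose (log2FC -4.12 ± 0.20, adjusted p = 7.46e-11), as did Txnip, which restrains glucose uptake (log2FC -2.39 ± 0.32, adjusted p = 9.5e-06). With carboplatin averaged over both states, the calls in these 5 lists were Slc16a7, a further monocarboxylate transporter (log2FC -1.24 ± 0.30, adjusted p = 0.0435), and Rptor, a subunit of mTOR complex 1 (log2FC -0.59 ± 0.13, adjusted p = 0.0177). Each was the 1 call of its list, of 27 (3.7%) and of 14 tested genes (7.14%), against 1.99% of all tested genes. How these calls depend on single libraries was not examined. At an unadjusted p under 0.05 in edgeR, carboplatin singled out 5 of 14 tested glycogen genes in LPS-primed and 4 in LPS-tolerant BMDMs. Of all tested genes 6.86% and 6.73% did so, and the other lists held 0 to 3 such genes in either state. None of the glycogen genes passed at an adjusted p under 0.05.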

How the data were processed

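RNA-Seq read pairs were counted for each gene in 18 BMDM samples from mice. By the methods of the study, RNA with an integrity number over 7.0 was made into stranded mRNA libraries and sequenced as paired reads of 150 bases, and the authors used HISAT2 for alignment to GRCm39 and HTSeq-count for counting. The deposited counts are whole numbers without normalization. The submitters' processing notes also name DESeq2. Versions of the aligner and counter, the annotation and the strand setting are not given in the sources used here. The 5 summary rows of each file (41.5% to 46.9% of its total) were left out of library sizes and tests. Depth was 6869667 to 14708099 read pairs per library. At this depth a gene with few counts has a wide counting error.

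The members and gene lists were chosen with earlier results of these data known. Groups and replicate numbers came from the sample labels. All 18 samples were fitted with 1 mean per group in edgeR 4.0.16 (R 4.3.3), with TMM normalization, its expression filter (minimum count 10, minimum total 15) and the quasi-likelihood F test. P-values were adjusted by Benjamini-Hochberg over the 11305 tested genes, and a call is an adjusted p under 0.05 with no fold limit. The SE of a log2FC is its size divided by the root of its F value. For normalized counts, each count was scaled by its library's TMM-adjusted size and the mean of these sizes. On simulated counts for LPS-primed against unstimulated samples (11120 genes), 61% of 100 genes changed 2-fold and 95% of 100 changed 4-fold were recovered.

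The difference between the responses to re-exposure and to the first exposure was tested as 1 contrast of 4 groups. Per-sample values are given for the 6 called members with the largest change in each LPS comparison, for called members (or the 3 with the smallest p) in the carboplatin comparisons, and for 1 gene of each role. Same-numbered samples of different groups deviated together (r of 0.06 to 0.57 over 45 pairs, 44 above 0.1), with the number taken from the labels, and a fit blocked on this number is given where it changes a call. The pair below 0.1 touches only the contrast of both responses. Alternatives were DESeq2 1.42.0, limma-voom (limma 3.58.1), other normalizations, filters, limits and sample sets, and leaving out each library. Copies of transcripts were sought with minimap2 2.31 on GRCm39.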

Additional observations from a re-analysis of the deposited data

Results flagged for a closer look

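The response to LPS at 10 ng/ml differed between cells not exposed before and cells primed for 24 h, by edgeR's test of the difference itself, in 12 of the 36 genes (33.3%), where 23.8% of all tested genes were called. The response to re-exposure was lower by a log2FC difference of -5.81 for Pfkfb3, -3.64 for Hk2, -3.56 for Slc2a1, -2.94 for Slc2a6, -2.47 for Slc16a3, -2.27 for Slc16a1, -1.92 for Pfkl, -0.93 for Ldha, -0.69 for Hk1 and -0.67 for Pgam1. It was higher by 1.28 for Pfkfb4 and 0.66 for Pgd. Of the genes with lower values, Slc2a6 was the one with no called change after priming (log2FC 0.03, adjusted p = 0.941). Myc, the 1 of 14 tested regulators called on re-exposure, rose in the same samples (log2FC 3.74, adjusted p = 4.53e-05). Its level of 572 ± 95.8 normalized counts in LPS-tolerant BMDMs stayed below the 1533 ± 320 in LPS-stimulated BMDMs.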

How the results depend on the processing

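No called gene changed sign under any alternative. Of the values tracked for single genes, 1458 stayed on their side of the threshold in the same direction, 144 lost and 10 gained a call, and 2 not called turned sign, namely G6pdx after priming with library size alone (log2FC -0.05) and Tkt after the single dose without unstimulated replicate 1 (0.05, range over the left-out libraries -0.27 to 0.05). At the limits of the study (log2FC beyond 2), the calls were 11 after priming, 5 after the single dose, 3 between LPS-tolerant and LPS-stimulated, 0 between LPS-tolerant and LPS-primed BMDMs, 0 for carboplatin averaged over both states and 6 between both responses. At a log2FC beyond 1 they were 13 after the single dose and 0 for averaged carboplatin. Without 1 library, calls ranged from 0 to 1 between LPS-tolerant and LPS-primed BMDMs and from 0 to 1 for averaged carboplatin. The replicate block gave 3 calls for averaged carboplatin and 18 (4 higher, 14 lower) in place of 12 between both responses, where 1 of the sample pairs did not deviate together, and removed no call. Every one of the 18 samples correlated best with its own number. DESeq2 and limma-voom each called 14 genes between both responses, with Pgk1 and Tpi1 as the further ones. Library size alone moved the median log2FC of all genes from -0.02 to -0.26 after priming, from -0.01 to -0.11 between LPS-tolerant and LPS-primed BMDMs and from 0.06 to 0.30 between both responses. The cause of these changes was not tested, apart from the stricter limits and smaller sample numbers themselves.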
